A study of Mus musculus with 7 samples.

Results

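Mature oligodendrocytes express many genes that build no part of the myelin sheath, and 9 of these genes are described here in mouse cerebral cortex: Gjb1, Ermn, Trf, Tspan2, Gsn, Ppp1r14a, Gpr37, Adamts4 and S1pr5. They were chosen by name as connexin, cytoskeletal, transport and receptor genes of mature oligodendrocytes outside the main sheath proteins. Each stood on 1 of the 56941 rows of the deposited table. RNA sequencing was done on whole cortex at postnatal day 7, in 4 wild-type samples (WT) and 3 samples carrying P213L, a variant of Hnrnph2. Hnrnph2 lies on the X chromosome and encodes an RNA-binding protein of the hnRNP class. The samples had no other treatment in the labels, and the sources used here give no strain, sex or zygosity for the mice. The title of the series names myelination and oligodendrocyte differentiation as its subject, so the comparison asks whether genes of the mature cell differ with the variant. Whether each sample is a separate animal is not stated in the labels, so p-values measure only how these samples spread, which may be technical.

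Oligodendrocytes arise from dividing precursors, pass through a short newly formed stage and then wrap axons. Maturing cells switch on the proteins of compact myelin together with genes for the rest of the cell: gap junctions that couple them to astrocytes, an actin cytoskeleton that is taken apart as the membrane spreads, iron transport, and surface receptors that sense the surroundings. In the mouse cortex myelination is only starting in the first postnatal week. Several of the 9 genes are also transcribed outside the lineage, so that bulk cortex holds RNA from more than 1 source. In bulk tissue fewer cells of a type and less RNA per cell cannot be told apart.

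The values were transcripts per 1000000 (TPM), a measure scaled by gene length, so levels can be set side by side between genes. Library depth, estimated from the spacing of low values, was 57.2 to 79.4 counted units per library, in units of 1000000. One library differed from all others: WT replicate 3 correlated with them at r = 0.943 to 0.949 over the tested genes, and the other 6 libraries with each other at 0.981 to 0.992. WT replicate 2 was high in choroid plexus markers, with Ttr at 1216 TPM against at most 1.36 TPM elsewhere. Of 21 tested mitochondrially encoded transcripts 20 were lower in P213L, with a median log2 fold change of -0.67, and the sum over all 37 such rows was 55780 to 85060 TPM in the WT libraries and 41690 to 68910 TPM in the P213L libraries. With those rows removed 5 of the 8 tested members were still higher and 3 lower. All 10 markers of cortical excitatory neurons were present in every library, at a sum of 960.4 TPM in WT replicate 3 and 1419 to 1602 TPM in the other 6.

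None of the 9 genes differed between P213L and WT cortex past the threshold. Of the 8 with a mean of at least 1 TPM, which entered the limma fit on log2(TPM + 0.5) over all genes, 0 passed an adjusted p of 0.05, and the lowest adjusted p was 0.827. No gene at all passed (0 of 17582, or 0%), so that count sets the members apart from nothing. The unadjusted p was under 0.05 for 657 genes (3.74%), and for 0 of the 8. The log2 fold changes of the 8 genes ran from -0.17 to 0.29 with a median of 0.06, beside a median of 0.07 over all tested genes. Higher values in P213L were found for 5 of the 8 and lower values for 3, while 63.4% of all tested genes were higher. With median-of-ratios scaling 3 were higher and 5 lower.

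By level the genes fell into an order that was nearly the same in every library. Tspan2 was highest at 38.2 ± 5.02 TPM (SD over all 7 samples), followed by Gsn at 30.1 ± 2.07 TPM and Trf at 20.1 ± 0.776 TPM. Gpr37 stood at 10.1 ± 1.45 TPM. Adamts4, Ppp1r14a and S1pr5 lay close together at 6.02 ± 1.599, 4.99 ± 1.10 and 4.62 ± 0.597 TPM, and Gjb1 followed at 2.85 ± 0.549 TPM. Ermn was lowest at 0.643 ± 0.112 TPM. Neighbours in this order kept their places in all 7 samples except for 3 pairs: Tspan2 was above Gsn in 6 samples, Adamts4 above Ppp1r14a in 6, and Ppp1r14a above S1pr5 in only 4. The last pair did not differ beyond its spread, with a mean log2 ratio of 0.09 ± 0.24 (SD, n = 7), and neither did the pair of Adamts4 and Ppp1r14a, at 0.24 ± 0.75. The spread of Adamts4 and Ppp1r14a includes WT replicate 3, the only sample where their order turned, at 2.76 and 6.85 TPM. Tspan2 exceeded 72.2% of tested genes in mean level and Gjb1 20.1%.

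**Figure D1:**
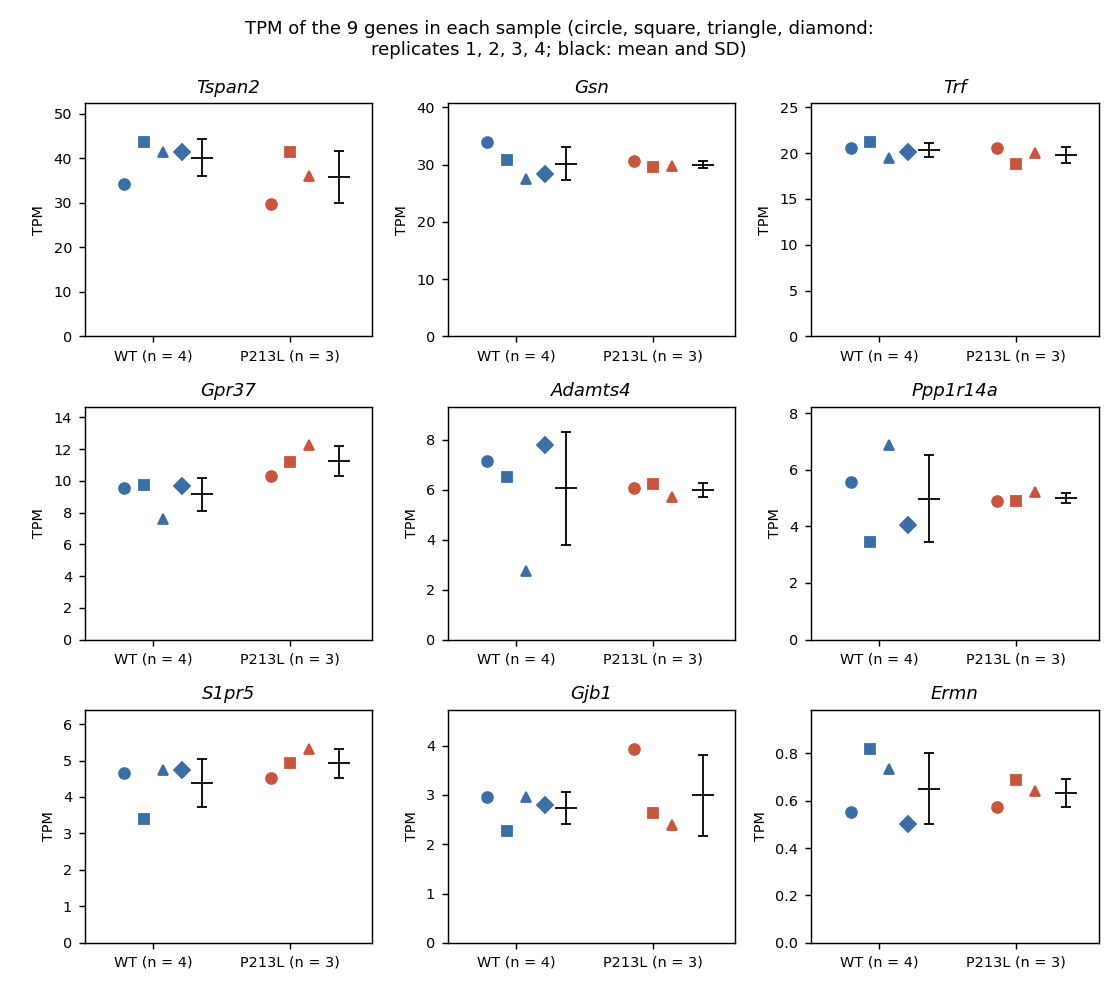
TPM (vertical axes, from 0) of the 9 genes in each WT and P213L sample, ordered by mean level, with marker shape giving the replicate and black bars the mean and SD of each group. The groups overlap for 8 genes, and for Gpr37 the 3 P213L samples (10.3 to 12.2 TPM) lie above the 4 WT samples (7.61 to 9.77 TPM).

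The first role is coupling between cells. Gjb1 (ENSMUSG00000047797; mm10, chromosome X, 101376378 to 101385629, plus strand) encodes connexin 32, which forms gap junctions in the layers of myelin and between oligodendrocytes and astrocytes. Gjb1 stood at 2.95, 2.26, 2.96 and 2.79 TPM in WT replicates 1 to 4 and at 3.94, 2.64 and 2.40 TPM in P213L replicates 1 to 3. P213L replicate 1 was the highest of all 7 and the other P213L samples lay within the WT range. The difference in log2 was 0.09 ± 0.19 (SE; 95% interval -0.36 to 0.53; limma adjusted p = 0.887; exact permutation p = 0.686, two-sided). Its direction rested on that sample: without P213L replicate 1 the log2 fold change was -0.10. These values rest on 72.0 to 131.0 counted units per library, and the square-root counting error at the lowest is 11.8% if 1 unit is 1 count.

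The 10 tested connexins of the table, Gjb1 included, gave 5 higher and 5 lower values, where 63.4% of all tested genes were higher. Their median log2 fold change was 0.02. At an unadjusted p under 0.05 there was 1, beside 3.74% of all tested genes, and 0 passed adjustment in limma. That gene was Gjc3, the connexin 29 of oligodendrocytes, at 6.37 ± 0.921 TPM for WT and 4.59 ± 0.683 TPM for P213L (SD, n = 4 and 3), with all P213L samples below all WT samples. Gjb1 did not share the lower P213L values of Gjc3, and the difference between them was not tested. The astrocytic partners Gja1 and Gjb6 had log2 fold changes of -0.04 ± 0.14 and -0.30 ± 0.14 (SE; limma adjusted p = 0.920 and 0.827).

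The second role is the cytoskeleton and the membrane. Ermn (ENSMUSG00000026830; chromosome 2, 58045113 to 58052864, minus strand) encodes ermin, an actin-binding protein found in late oligodendrocytes. It stood at 0.552, 0.819, 0.733 and 0.4998 TPM in the WT replicates and at 0.572, 0.686 and 0.639 TPM in the P213L replicates. The P213L samples all lay inside the WT range (exact permutation p = 0.914). Ermn is below the filter of 1 TPM in mean level and has no row in the fit. Each value rests on 31.5 to 55.5 counted units, a counting error of 17.8 to 13.4% if 1 unit is 1 count. A difference smaller than the spread of these samples was not detectable here.

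Gsn (ENSMUSG00000026879; chromosome 2, 35256380 to 35307892, plus strand) encodes gelsolin, which severs and caps actin filaments and takes part in the disassembly of actin during wrapping. Gsn stood at 33.9, 30.8, 27.5 and 28.4 TPM in WT and at 30.7, 29.6 and 29.7 TPM in P213L. The P213L values sat in the middle of the WT range. Of the 8 tested genes it had the smallest difference, with a log2 fold change of -0.0016 ± 0.11 (SE; 95% interval -0.26 to 0.25; limma adjusted p = 0.996; exact permutation p = 1.0). The sign has no weight at this size, and the value was 0.06 without WT replicate 1. Fibroblasts of the meninges also make gelsolin. Of 13 meningeal fibroblast markers, none at 0, 10 were higher in P213L, where 63.4% of all tested genes were higher. An unadjusted p under 0.05 was found for 3, beside 3.74% of all tested genes. The markers summed to 210.1 to 274.6 TPM for WT and 258.9 to 339.0 TPM in P213L. The part of these fibroblasts in the Gsn values was not tested.

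Ppp1r14a (ENSMUSG00000037166; chromosome 7, 29289308 to 29293801, plus strand) encodes CPI-17, an inhibitor of myosin phosphatase that is known from smooth muscle and is also a marker of mature oligodendrocytes. Ppp1r14a stood at 5.58, 3.43, 6.85 and 4.05 TPM in WT and at 4.90, 4.89 and 5.22 TPM in P213L. The WT samples were spread to both sides of the P213L samples, with a coefficient of variation of 30.9% in WT and 3.76% in P213L. The difference in log2 was 0.05 ± 0.22 (SE; 95% interval -0.47 to 0.56; limma adjusted p = 0.947; exact permutation p = 0.857), and it was -0.10 without WT replicate 2 and 0.20 without WT replicate 3. Among 13 markers of vascular smooth muscle and pericytes, another place where this gene is known to be transcribed, summed levels were 352.0 to 383.1 TPM for WT and 353.6 to 370.6 TPM in P213L. None of the 13 was at 0. The lowest of these sums was in WT replicate 3, where Ppp1r14a was highest. The single markers did not move together in that library. Acta2 (28.6 TPM), Myl9 (65.2 TPM), Kcnj8 and Cnn1 were at their highest of the 7 samples there. Vtn, Pdgfrb (13.0 TPM), Notch3 (7.50 TPM), Abcc9, Myh11 and Tagln were at their lowest. The part of these cells in the Ppp1r14a values was not tested.

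Tspan2 (ENSMUSG00000027858; chromosome 3, 102734529 to 102801513, plus strand) encodes a tetraspanin, a protein with multiple membrane passes that organises other membrane proteins. Tspan2 stood at 34.1, 43.6, 41.3 and 41.3 TPM in WT and at 29.8, 41.4 and 36.0 TPM in P213L. P213L replicate 1 was the lowest of the 7 and P213L replicate 2 lay among the WT samples. The log2 fold change, -0.17 ± 0.15, was the lowest of the 8 (SE; 95% interval -0.51 to 0.17; limma adjusted p = 0.827; exact permutation p = 0.457), and without P213L replicate 1 it was -0.05. An antisense gene, Tspan2os, overlaps its exons at 1.12 to 3.05 TPM for WT and 1.96 to 2.43 TPM in P213L. The library kit keeps the strand, but the strand setting of the counting is not given in the sources used here.

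Lists of related cytoskeletal and membrane genes are given beside the 3.74% of all tested genes with an unadjusted p under 0.05. Of all tested genes 63.4% were higher in P213L. Of 22 tested ERM and actin regulators, including Gsn, 10 were higher and 12 lower with a median log2 fold change of -0.03, and 1 had an unadjusted p under 0.05. This was Flii, a gelsolin relative, at 42.8 ± 12.6 TPM for WT and 62.8 ± 3.16 TPM for P213L (SD, n = 4 and 3; log2 fold change 0.60 ± 0.23, SE; limma adjusted p = 0.827), and without WT replicate 3, which held the lowest value of 26.6 TPM, its log2 fold change was 0.39. Ezr, which links actin to the membrane, had 0.04 ± 0.21. Of 17 tested genes of myosin phosphatase and its regulators, including Ppp1r14a, 11 were higher and 6 lower, and 0 had an unadjusted p under 0.05. Of 21 tetraspanins, including Tspan2, 10 were higher and 11 lower with a median of -0.04. Cd82 was the only tetraspanin with an unadjusted p under 0.05, at 10.8 ± 1.204 TPM for WT and 14.3 ± 1.27 TPM in P213L (log2 fold change 0.39 ± 0.13, SE; limma adjusted p = 0.827).

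The third role is transport. Trf (ENSMUSG00000032554; chromosome 9, 103204001 to 103230444, minus strand) encodes transferrin, the iron carrier that oligodendrocytes make in the brain. Trf stood at 20.5, 21.2, 19.5 and 20.1 TPM in WT and at 20.6, 18.8 and 19.95 TPM in P213L. The groups overlapped almost completely, and the coefficient of variation was only 3.58% in WT and 4.44% in P213L. Trf had the smallest standard error of the 8 genes, with a log2 fold change of -0.04 ± 0.10 (SE; 95% interval -0.26 to 0.19; limma adjusted p = 0.906; exact permutation p = 0.4). Gm20425, which overlaps Trf on the same strand over 26307 bases, exons included, is listed at 0 in all libraries. Whether this overlap affects the Trf values was not tested. On the fold scale the interval of Trf ran from 0.833 to 1.14. The choroid plexus epithelium also makes transferrin, and WT replicate 2, high in choroid plexus markers, had the highest Trf value. Choroid plexus markers summed to 1344 TPM there and to 49.96 to 65.6 TPM in the other WT libraries, and to 55.8 to 60.0 TPM in P213L, with none of the 12 at 0 in all samples. Without that library the Trf log2 fold change was -0.02.

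The 18 tested genes of iron handling, Trf included, gave 12 higher and 6 lower values, with a median log2 fold change of 0.06 and 0 at an unadjusted p under 0.05. Of all tested genes 63.4% were higher and 3.74% had an unadjusted p under 0.05, with a median of 0.07. The transferrin receptor Tfrc stood at 78.4 ± 16.4 TPM for WT and 65.6 ± 3.13 TPM in P213L. The ferritin heavy chain gene Fth1, which stores iron and is abundant in oligodendrocytes, stood at 976.6 ± 309.1 and 758.4 ± 68.4 TPM. WT replicate 3 held 1439 TPM of Fth1, against 798.1 to 844.0 TPM in the other WT samples. For Fth1 the difference in log2 was -0.32 ± 0.21 (SE; limma adjusted p = 0.827), and -0.12 without WT replicate 3.

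The remaining genes act at the cell surface and in the matrix. Gpr37 (ENSMUSG00000039904; chromosome 6, 25665878 to 25690729, minus strand) encodes a G-protein-coupled receptor for which prosaposin has been proposed as a ligand and which is known to restrain oligodendrocyte differentiation. Gpr37 stood at 9.57, 9.77, 7.61 and 9.68 TPM in WT and at 10.3, 11.2 and 12.2 TPM in P213L. It was the only one of the 8 tested genes whose groups did not overlap, with all 3 P213L samples above all 4 WT samples. Such a separation with P213L higher occurred for 5.94% of all tested genes, and with P213L lower for 2.75%, and 1 member is too few to read against those shares. The difference in log2 was 0.29 ± 0.13 (SE; 95% interval -0.02 to 0.60), a fold of 1.22. It did not pass in limma (unadjusted p = 0.0640, adjusted p = 0.827). The two-sided exact permutation p was 0.0571, the smallest that 4 against 3 samples allow, so that test could not fall under 0.05. WT replicate 3 was the lowest sample, and without it the difference was 0.21 ± 0.08 (SE; unadjusted p = 0.0397, adjusted p = 0.546 in limma), with the groups still apart.

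The other genes of this receptor system had smaller differences than Gpr37. Gpr37l1, its close relative in astrocytes, stood at 147.6 ± 20.3 TPM for WT and 145.6 ± 10.5 TPM for P213L (SD, n = 4 and 3; log2 fold change -0.01 ± 0.13, SE). Psap, the gene of prosaposin, stood at 1757 ± 93.1 and 1670 ± 74.9 TPM (log2 fold change -0.07 ± 0.09, SE). Of the 5 tested genes of this list, Gpr37 among them, 3 were higher and 2 lower, and 0 had an unadjusted p under 0.05. The shares over all tested genes were 63.4% higher and 3.74% with an unadjusted p under 0.05.

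S1pr5 (ENSMUSG00000045087; chromosome 9, 21242912 to 21248443, minus strand) encodes the sphingosine 1-phosphate receptor that is the main one of oligodendrocytes. S1pr5 stood at 4.67, 3.39, 4.74 and 4.74 TPM in WT and at 4.53, 4.92 and 5.32 TPM in P213L. WT replicate 2 was low, and P213L replicates 2 and 3 lay above the WT range. The difference in log2 was 0.16 ± 0.16 (SE; 95% interval -0.20 to 0.52; limma adjusted p = 0.827; exact permutation p = 0.286), and 0.05 without WT replicate 2. Of 12 tested genes of sphingosine 1-phosphate receptors and metabolism, including S1pr5, 9 were higher and 3 lower with a median of 0.16. Without WT replicate 3 the median of this list was 0.04. Of all tested genes 63.4% were higher and 3.74% had an unadjusted p under 0.05. The median over all tested genes was 0.07, and -0.0016 without WT replicate 3. S1pr1, the receptor of astrocytes and endothelium, stood at 74.2 ± 4.47 TPM for WT and 73.5 ± 1.32 TPM in P213L. The only gene of the sphingosine 1-phosphate list with an unadjusted p under 0.05 was Mfsd2a, a lipid transporter of brain endothelium, at 60.1 ± 3.05 and 51.5 ± 1.94 TPM (log2 fold change -0.22 ± 0.09, SE; limma adjusted p = 0.827).

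Adamts4 (ENSMUSG00000006403; chromosome 1, 171250421 to 171260637, plus strand) encodes a secreted protease that cleaves proteoglycans of the brain matrix and is a marker of mature oligodendrocytes. Adamts4 stood at 7.15, 6.51, 2.76 and 7.76 TPM in WT and at 6.05, 6.21 and 5.69 TPM in P213L. WT replicate 3 was far below every other sample, and the other WT samples were all above the 3 P213L samples. With all samples the log2 fold change was 0.07 ± 0.31, the largest standard error of the 8 (SE; 95% interval -0.65 to 0.80; limma adjusted p = 0.943; exact permutation p = 0.914). Without WT replicate 3 it turned to -0.23 ± 0.09 (SE; 95% interval -0.46 to -0.01; unadjusted p = 0.0404, adjusted p = 0.549 in limma; exact permutation p = 0.1, the smallest that 3 against 3 allows). Without that library 6.89% of tested genes were separated with P213L lower, 7.33% with P213L higher, and 8.69% had an unadjusted p under 0.05, and among the 8 genes the counts were 1 (Adamts4), 1 (Gpr37) and 2 (both). The direction of Adamts4 therefore depends on 1 library.

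Of the 13 tested genes of the ADAMTS enzymes, their inhibitor and their substrates, including Adamts4, all were higher in P213L with a median of 0.19. An unadjusted p under 0.05 was found for 0 of them. The shares over all tested genes were 63.4% higher and 3.74% with an unadjusted p under 0.05. Without WT replicate 3 the list gave 6 higher and 7 lower with a median of -0.01. Bcan, the proteoglycan brevican and a substrate of Adamts4, stood at 281.1 ± 40.8 TPM for WT and 312.1 ± 22.4 TPM for P213L (SD, n = 4 and 3), and the inhibitor Timp3 at 16.5 ± 7.50 and 17.4 ± 1.15 TPM.

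**Figure D2:**
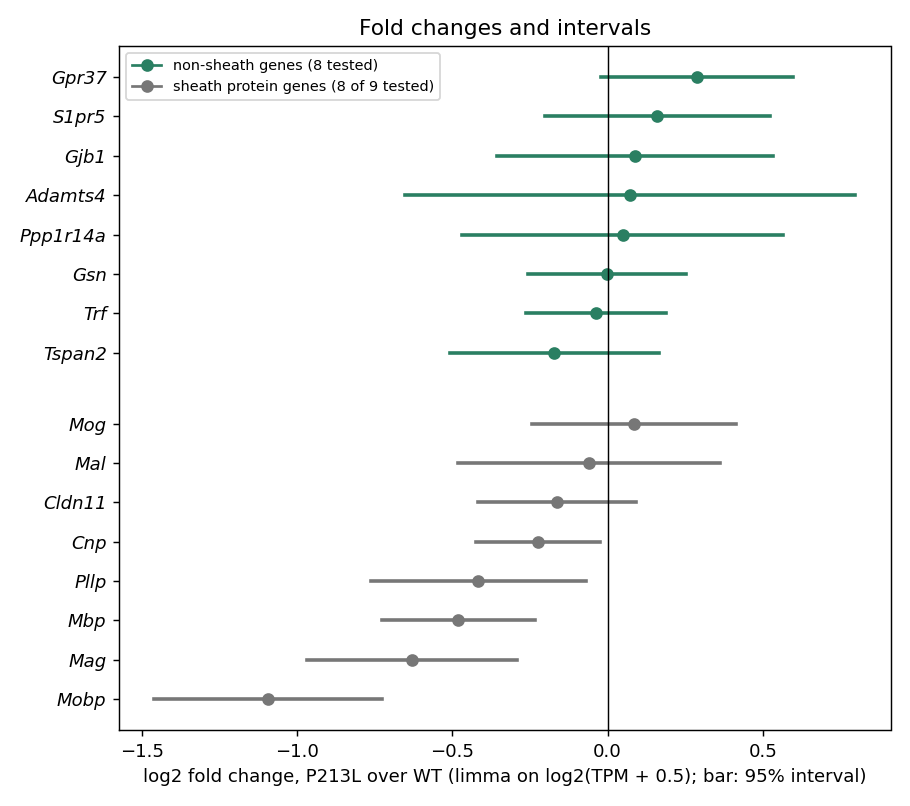
log2 fold changes of P213L over WT with 95% intervals (horizontal axis, limma on log2(TPM + 0.5)) for the 8 tested non-sheath genes and 8 of the 9 tested sheath protein genes. The intervals of all 8 non-sheath genes hold 0, as do those of the sheath protein genes Cldn11 (-0.16), Mal (-0.06) and Mog (0.08). The intervals of Mobp (-1.09), Mag (-0.63), Mbp (-0.48), Pllp (-0.42) and Cnp (-0.22) lie below 0.

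The sheath protein genes of the same libraries, already known to be low in P213L when these lists were chosen, serve as the measure of size. Of 9 tested, 8 were lower, where 36.6% of all tested genes were lower. Mog was the 1 that was higher (log2 fold change 0.08 ± 0.14, SE; limma adjusted p = 0.861). An unadjusted p under 0.05 was found for 6, beside 3.74% of all tested genes, and 0 passed adjustment in limma. The median log2 fold change was -0.42. For 5 of the 8 non-sheath genes, the whole 95% interval lay above that median. The intervals of Adamts4, Ppp1r14a and Tspan2 held it. All 8 intervals lay above the Mobp estimate of -1.09, and 6 of 8 above the Mbp estimate of -0.48. The 95% intervals are not adjusted for the number of genes. The sheath values were taken as fixed, without their own error, so a difference between the lists was not tested.

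Averaged over the 8 tested genes, log2(TPM + 0.5) was 3.46, 3.31, 3.29 and 3.41 in the WT replicates and 3.42 in each of the 3 P213L replicates. The P213L samples were alike and lay inside the WT range. The same mean over the 9 sheath genes was 4.37 to 4.52 in WT and 3.995 to 4.06 in P213L. The non-sheath mean less the sheath mean was therefore -0.94, -1.07, -1.23 and -1.09 in WT and -0.58, -0.59 and -0.64 in P213L. All P213L samples lay above all WT samples in this difference, by 0.48 on average and by 0.43 without WT replicate 3. It is given as a description, with no test, and the sheath list was already known to be low in these data. A difference within a library is little affected by scaling, and under median-of-ratios scaling it was 0.48, under quantile normalization 0.46.

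**Figure D3:**
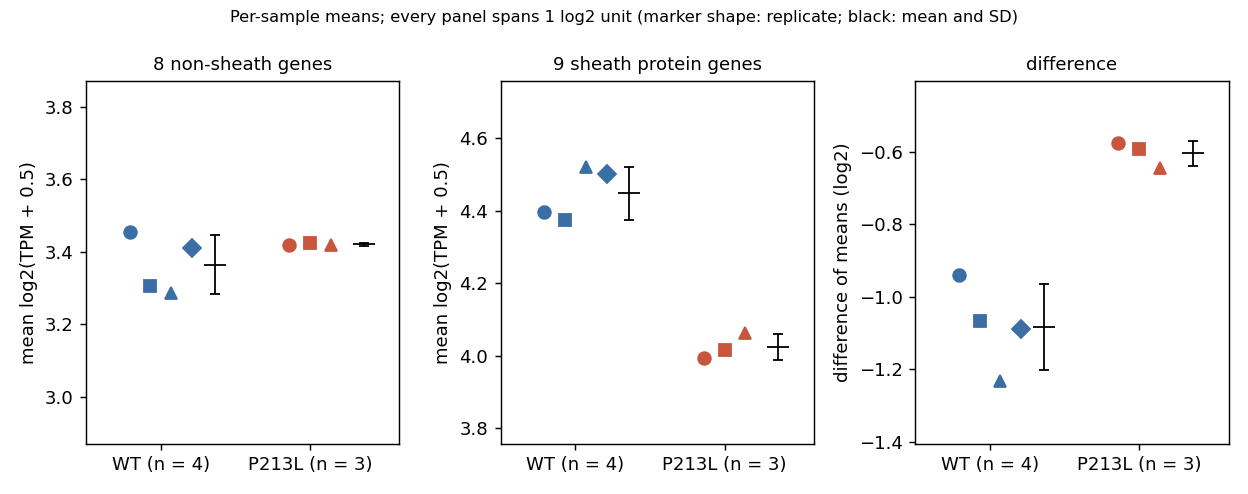
Mean log2(TPM + 0.5) per sample of the 8 non-sheath genes and of the 9 sheath protein genes, and the difference between them, each panel spanning 1 log2 unit, with marker shape giving the replicate and black bars the mean and SD of each group. The non-sheath means overlap between groups, and the difference is -1.23 to -0.94 in WT and -0.64 to -0.58 in P213L.

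Set against other stages of the lineage, the groups overlapped relative to precursors and were separated by a narrow margin relative to committed and newly formed cells. The non-sheath mean less the mean of 15 precursor genes was -2.11 to -1.53 in WT and -1.94 to -1.90 in P213L, an average difference of -0.04 that was 0.08 without WT replicate 3. Less the mean of lineage transcription factors it differed by 0.01 on average, and by 0.09 without WT replicate 3. Less the mean of committed and newly formed genes it differed by 0.13, and by 0.16 without WT replicate 3, with WT at -0.90 to -0.65 and all P213L samples above them at -0.64 to -0.62. Sox10, which is expressed across the lineage, stood at 44.9 ± 9.43 TPM for WT and 48.8 ± 3.32 TPM for P213L (SD, n = 4 and 3), and Pdgfra of precursors at 50.7 ± 11.5 and 49.0 ± 0.935 TPM.

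A wider list of 43 tested non-sheath genes of mature oligodendrocytes, none of them among the 9, gave 22 higher and 21 lower values, where 63.4% of all tested genes were higher, and a median log2 fold change of 0.01. Of the 43, 2 higher and 2 lower had an unadjusted p under 0.05, beside 3.74% of all tested genes, and 0 passed adjustment in limma. With all samples 5 of the 43 were separated with P213L higher (5.94% of all tested genes) and 4 with P213L lower (2.75%). Ndrg1, a stress-response gene of myelinating glia, was higher at 21.2 ± 1.08 TPM for WT and 26.4 ± 0.599 TPM in P213L (log2 fold change 0.31 ± 0.10, SE). The lower ones were Gjc3 and Cryab, a small heat shock protein, at 73.7 ± 9.33 and 58.9 ± 4.06 TPM (log2 fold change -0.32 ± 0.12, SE; limma adjusted p = 0.827 for each of these genes). Without WT replicate 3 the list gave 15 higher and 28 lower with a median of -0.05, beside -0.0016 over all genes. In that setting 4 higher and 6 lower had an unadjusted p under 0.05 (8.69% of all tested genes), and 7 were separated with P213L lower (6.89%) and 5 with P213L higher (7.33%). Another 11 listed rows were below the filter of 1 TPM and were not tested, and 3 of these were separated, all with P213L lower. The share of separated rows among all genes below the filter was not computed, so this count cannot be judged. These 3 genes were named after their values were seen. Tmem125 stood at 1.16 to 1.51 TPM across WT samples and 0.264 to 0.778 TPM across P213L samples. Nipal4 stood at 0.862 to 1.19 and 0.723 to 0.794 TPM, and Cldn14 at 0.260 to 0.428 and 0.180 to 0.193 TPM.

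The 9 genes did not vary together as a set across the 7 libraries. Of their 36 pairs, 24 had a Pearson correlation below 0 and 12 above, with a median r of -0.16 pooled and -0.14 for deviations from group means. In the pooled values no pair exceeded 0.7, and 2 lay below -0.7: Gjb1 with Tspan2 (r = -0.74, and -0.81 without WT replicate 3) and Ppp1r14a with Adamts4 (r = -0.71, and -0.28 without that library). Gpr37 with Adamts4 had r = 0.60 pooled, 0.82 for deviations from group means and -0.81 without WT replicate 3. Ppp1r14a with S1pr5 had 0.64 pooled and 0.78 without it. Adamts4 had r = 0.96 with the mean of the precursor genes and -0.21 with the sheath mean, and without WT replicate 3 these were 0.49 and 0.88. Gpr37 ran against the sheath mean (r = -0.79, and -0.76 without WT replicate 3). These are descriptions over 7 samples that share the group difference, so no p is given. The genes whose levels were most like the mean of the 8 were Rps6kl1 (r = 0.98), Rccd1 (0.98), Nup88 (0.98), Pip5kl1 (0.97) and Zfp513 (0.97), among 11469 searched, of which 183 had r above 0.9.

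**Figure D4:**
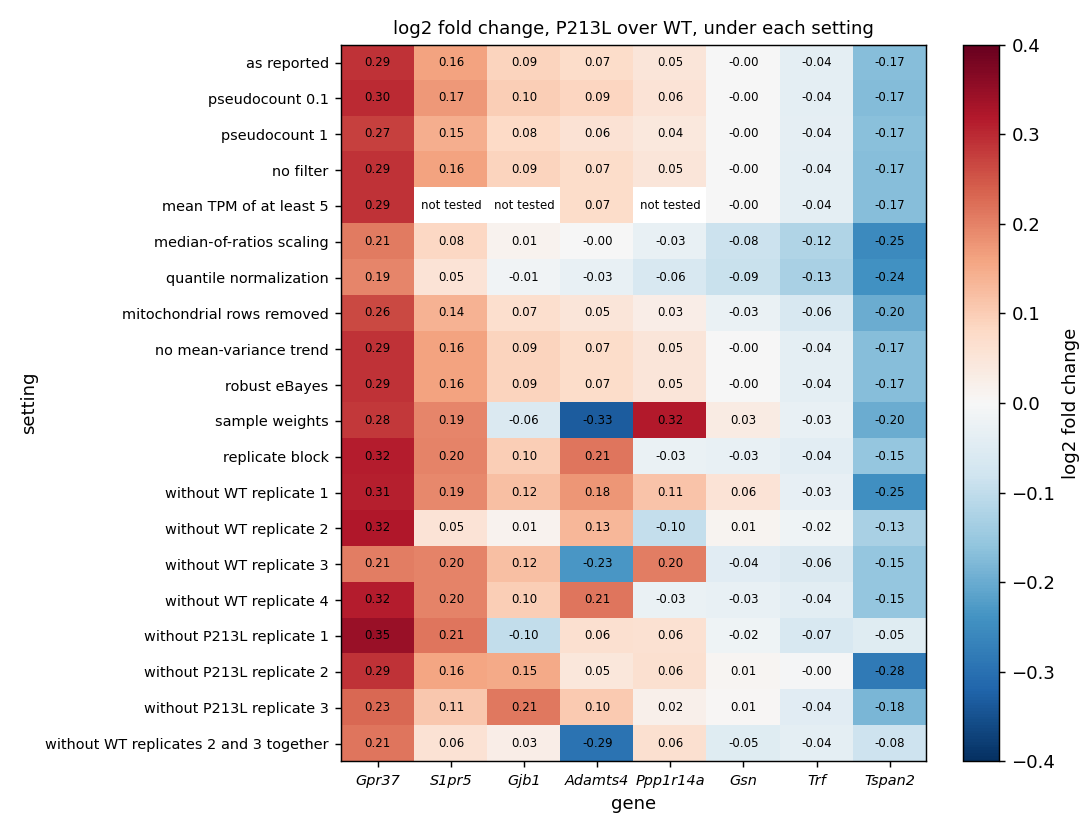
log2 fold change of P213L over WT for each of the 8 tested genes (columns) under each processing setting (rows), with colour and number giving the value. Gpr37 and S1pr5 are positive and Tspan2 and Trf negative in every row where they were tested, while Adamts4 is -0.23 without WT replicate 3 and -0.33 with sample weights.

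Across the 19 other settings tried, the direction held for Gpr37 (0.19 to 0.35), S1pr5 (0.05 to 0.21), Trf (-0.13 to -0.0035) and Tspan2 (-0.28 to -0.05). S1pr5, Gjb1 and Ppp1r14a, below 5 TPM in mean level, had 18 such settings. The direction turned in some of them for Gjb1, Gsn, Ppp1r14a and Adamts4. The adjusted p was above 0.05 for all 8 genes in every setting but 1. With sample weights, which gave WT replicate 3 a weight of 0.0431 and WT replicate 4 and P213L replicate 3 weights of 5.24 and 6.90, limma called 3981 genes, among them Gpr37 (0.28, adjusted p = 0.0165), Adamts4 (-0.33, adjusted p = 0.0241) and Ppp1r14a (0.32, adjusted p = 0.0334).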

How the data were processed

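The data were 7 strand-specific poly(A) libraries from cortex, per the labels' protocols. The submitters' processing notes name HISAT2, HTSeq and mm10. Versions, annotation, gene lengths and strand setting are not stated in the sources used here. TPM values were deposited by the authors, per the file headers, with 297 rows that share a symbol with another row and 0 columns of other samples. Depth was estimated from TPM times exon length in GENCODE vM21 (mm10), as the most frequent low value. With those lengths 95.1 to 96.1% of values up to 10 units lay within 0.05 of a multiple of 0.5 units. The estimate covers counting error only, and no count test was run. Counting errors take 1 unit as 1 count, and what a unit stands for is not stated in the sources used here.

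Genes whose mean reached 1 TPM were tested as log2(TPM + 0.5) in limma 3.58.1 (R 4.3.3; mean-variance trend, two-sided, Benjamini-Hochberg over all 17582). Exact permutation used all 35 splits (scipy 1.17.1). The fit was tested on simulated data. Members, lists and naming rule (the 9 genes, the 3 with smallest p per list, fixed partners, and the 5 most alike above a mean of 5 TPM) were chosen with earlier results of these data known. Not every gene that the rule selects is printed, and some items are not reported here. Ttr, Mag, Cldn11, Mal, Pllp, Cnp, Gm20425, Tspan2os, Tmem125, Nipal4 and Cldn14 were named after their values were seen. The replicate block, other pseudocounts, filters, scalings, spread models and each sample left out were alternatives. WT replicates 2 and 3 left out together was added after seeing the data.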

Additional observations from a re-analysis of the deposited data

Results flagged for a closer look

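Among 20 per-sample measures, 5 held a WT sample far from the other 3 WT samples by Dixon's criterion for 4 samples, which chance flags in about 1 in 20 groups. On the log2(TPM + 0.5) scale, Gpr37 stood at 3.02 in WT replicate 3 against 3.33 to 3.36 in the other WT samples. S1pr5 stood at 1.96 in WT replicate 2 against 2.37 to 2.39. WT replicate 3 was also low in the mean of the precursor genes, 4.82 against 5.34 to 5.41, and in the mean of the lineage transcription factors, 4.21 against 4.63 to 4.69. Its mean over the wider list of mature non-sheath genes was 3.38 against 3.61 to 3.63. The cause was not tested.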

How the results depend on the processing

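Of the 19 alternatives, sample weights alone gave genes with an adjusted p under 0.05 (3981), and 4 members then had an unadjusted p under 0.05. The 657 genes with an unadjusted p under 0.05 became 361 at a mean of at least 5 TPM, 1836 with no filter, 6969 with sample weights, and 266 (without P213L replicate 1) to 1574 (without WT replicate 1) with 1 sample left out. Leaving out 1 sample gave 0 to 2 members with an unadjusted p under 0.05 and 1 to 2 members whose groups did not overlap, and leaving out WT replicates 2 and 3 together gave 1 and 2. Adamts4 was -0.0011 with median-of-ratios scaling, -0.030 after quantile normalization, -0.33 with sample weights, -0.29 without WT replicates 2 and 3, and -0.23 to 0.21 with 1 sample left out. Ppp1r14a was -0.031, -0.063 and 0.32 under the first 3 of these and -0.10 to 0.20 with 1 left out. Gjb1 was -0.013 after quantile normalization, -0.059 with weights and -0.10 to 0.21 with 1 left out. Gsn was 0.033 with weights and -0.044 to 0.056 with 1 left out. The members' mean difference (0.06) was -0.023 under median-of-ratios, -0.040 under quantile scaling and -0.013 without WT replicates 2 and 3. Relative to precursor genes it was 0.023 without both and -0.11 to 0.079 with 1 left out. In deviations from group means, same-numbered samples correlated at 0.13, 0.17 and -0.10, and WT and P213L samples of unlike number at -0.24 to 0.12. P213L replicates 1 and 2 correlated best with the WT sample of their own number, and P213L replicate 3 did not. So few values cannot decide whether the numbers pair the samples. With the replicate block 500 genes had an unadjusted p under 0.05, 0 an adjusted one, and Ppp1r14a was -0.027. These scalings moved the median of all genes from 0.07 to -0.0045 and -0.0073, and the share of higher values among genes with an unadjusted p under 0.05 from 63.2% to 51.9% and 49.4%. The causes were not tested. Depth limits Ermn and Gjb1 most.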
